A study of Mus musculus with 696 samples.

Results

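The cells described here are the 80 of 696 tail-skin keratinocytes (11.5%) with the highest joint level of 5 genes linked to the junctional zone of the hair follicle: Ntrk2, Adh7, Smarca1, Ccl27a and Inpp4b. Counts of every cell were scaled to a total of 1000000 (CPM), log2(CPM + 1) was converted to a z-score over all 696 cells, and the mean of the 5 z-scores ranked the cells. The junctional zone is the stretch of follicle between the bulge below and the infundibulum above, where the duct of the sebaceous gland joins. It holds Lrig1-expressing stem cells, which can feed the infundibulum and the gland, and which leave the follicle to help close a wound. The members are called Ntrk2/Adh7-high cells here, because these genes set them apart while Lrig1, Lgr6 and Plet1, usual markers of the zone, did not.

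Single cells came from tail skin of female mice of mixed CBA and C57BL/6 background, which carried Lrig1-EGFP-ires-CreERT2 together with the reporter Rosa26-fl/STOP/fl-tdTomato. Every group, the unwounded included, had been given hydroxytamoxifen once on the tail, so that cells with active Lrig1 and their descendants carried tdTomato, and mice were 7 to 9 weeks old when first wounded. Red cells were sorted from an area holding the wound bed and distant follicles at 4 time points: 0w, without a wound, 1w pw1, at 1 week from a full-thickness punch wound of the tail, 8w pw1, at 8 weeks from that wound, and 1w pw2, at 1 week from another punch wound, set in week 8. The Smart-seq2 protocol, which copies full-length transcripts of single cells without molecular identifiers, was applied to 2 plates per time point. The sort keeps the labelled lineage only, so a change in a cell share is a change within that lineage. Hydroxytamoxifen was given 1 week before 0w, so time since labelling and age of the mice rose over the time points. These plates hold no unwounded skin matched to the later time points, so neither can be told apart from the wounds.

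The 8 plates held 79 to 91 cells and 12293182 to 19760820 estimated counts each, and single cells held 3551 to 1895079. Over all plates the Ntrk2/Adh7-high cells had a median of 145051 counts and 4361 detected genes, against 131015 counts and 4467 genes in the other 616 cells. They were shallower than the others on 3 of the 4 plates taken 1 week after a wound, with medians of 119365 against 188289 and 38452 against 260479 counts at 1w pw1 and 67498 against 126792 on plate 1 of 1w pw2. Mitochondrial transcripts took a median of 26.5% of their counts and 19.7% of those of other cells, and the part of this difference in the results was not tested. This share was higher in these cells on every plate of 0w and 8w pw1, and in the single cell of plate 2 of 1w pw1. On plate 1 of 1w pw1 it was lower (14.8% against 17.9%). Both plates of 1w pw2 were lower too (11.7% against 14.3% and 10.3% against 13.4%). Each time point has a letter of its own in the sample titles, whose meaning they do not give, so whatever it marks cannot be told apart from the time point. The labels do not say that plates of a time point came from separate animals, so p-values measure the spread between plates.

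Ntrk2 encodes TrkB, the receptor for brain-derived neurotrophic factor and neurotrophin-4. Adh7 is an alcohol dehydrogenase that oxidises retinol and other alcohols. Ccl27a is a chemokine of keratinocytes that draws skin-homing T cells, Inpp4b is a phosphoinositide phosphatase that restrains Akt signalling, and Smarca1 is the ATPase of an ISWI chromatin remodeller. None of the 5 levels in these cells is a finding, because they chose the cells.

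Adh7 (chr3:138217760-138233382, GRCm38, plus strand) was detected, with at least 1 count, in 75 of the 80 cells (93.8%) and in 37.0% of the others. Ntrk2 (chr13:58806569-59133970, plus strand) and Ccl27a (chr4:41769467-41774247, minus strand) were each detected in 66 cells (82.5%), against 17.7% and 21.3% of the others. Inpp4b (chr8:81342556-82127914, plus strand) was detected in 62 cells (77.5%) and in 14.0% of the others. These 4 genes were found together in 39 of the 80 cells. A further 16 cells lacked only Inpp4b, 10 lacked only Ccl27a and 9 lacked only Ntrk2.

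Smarca1 (chrX:47809368-47892974, minus strand) behaved differently. It was detected in 6 cells of the whole series, 5 of them Ntrk2/Adh7-high, so that a few counts moved a cell far up the ranking. Of these 5 cells, 2 had no count of any of the other 4 genes, among them the cell with the highest score of all (3.53), a 1w pw1 cell with 316 Smarca1 counts. Without Smarca1 in the score, 76 of the 80 cells remained members. Scores just inside the limit were 0.785, 0.779 and 0.774, and just outside it 0.766, 0.766 and 0.758, so the limit cuts a continuous range and not a gap. Of the other cells, 264 had no count of any of the 5 genes.

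The 250 bases before the RefSeq transcription start are shown for Adh7 and Ntrk2, the rule genes with the largest difference from other cells, and for Postn, the gene outside the rule with the largest one over 6 plates (GRCm38.p6, plus strand in all 3). They were searched on both strands for TGANTCA, the letters of an AP-1 site, and for TATAAA, a core promoter element. The motifs do not overlap each other. Capitals mark the matches.
Adh7, chr3:138217523-138217772: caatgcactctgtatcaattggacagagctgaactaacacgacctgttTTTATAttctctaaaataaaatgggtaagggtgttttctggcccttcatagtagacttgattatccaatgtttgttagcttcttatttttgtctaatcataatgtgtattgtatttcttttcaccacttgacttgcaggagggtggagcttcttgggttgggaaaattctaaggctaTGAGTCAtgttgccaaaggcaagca
Ntrk2, chr13:58806319-58806568: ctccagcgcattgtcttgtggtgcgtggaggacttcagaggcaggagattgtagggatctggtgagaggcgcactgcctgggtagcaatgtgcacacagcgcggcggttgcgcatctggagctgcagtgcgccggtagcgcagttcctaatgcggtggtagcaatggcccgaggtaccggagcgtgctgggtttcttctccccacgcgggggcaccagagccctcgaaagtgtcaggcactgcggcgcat
Postn, chr3:54360857-54361106: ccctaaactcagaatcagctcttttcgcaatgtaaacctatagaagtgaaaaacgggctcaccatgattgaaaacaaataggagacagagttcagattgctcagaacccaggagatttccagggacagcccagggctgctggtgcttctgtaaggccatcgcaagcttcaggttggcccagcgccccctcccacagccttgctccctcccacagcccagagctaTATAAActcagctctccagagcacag
The Adh7 window held 1 match of TGANTCA, which began 25 bases before the start, and 1 of TATAAA on the other strand, 202 bases before it. Postn held a TATAAA match 26 bases before the start, and Ntrk2 held neither motif. Of all 32817 windows of this length, 6.75% held TGANTCA and 12.4% held TATAAA. Windows were found for 17 of the 20 genes named as higher, and 2 of these held TGANTCA and 3 held TATAAA. The 20 include the rule genes Ntrk2, Adh7, Ccl27a and Inpp4b, and Adh7 is in both of these counts. A match is a description of letters and no evidence of binding.

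How often did these cells occur before and after wounding? They were most frequent among the labelled cells of unwounded skin, scarce 1 week after either wound, and in between 8 weeks after the first wound. At 0w, 25 of 88 cells on plate 1 (28.4%, exact 95% binomial interval 19.3 to 39.0) and 20 of 91 on plate 2 (21.98%, 14.0 to 31.9) were Ntrk2/Adh7-high. At 1w pw1 these were 4 of 89 cells (4.49%, 1.24 to 11.1) and 1 of 79 (1.27%, 0.0320 to 6.85). At 8w pw1 they were 12 of 85 (14.1%, 7.51 to 23.4) and 13 of 87 (14.9%, 8.20 to 24.2). At 1w pw2 they were 2 of 86 (2.33%, 0.283 to 8.15) and 3 of 91 (3.30%, 0.685 to 9.33).

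The mean share was 25.2% ± 4.55 (SD, n = 2 plates) at 0w, 2.88% ± 2.28 (n = 2) at 1w pw1, 14.5% ± 0.583 (n = 2) at 8w pw1 and 2.81% ± 0.687 (n = 2) at 1w pw2. The plates of 0w, 8w pw1 and the 1-week time points did not overlap, whereas those of 1w pw1 and 1w pw2 did. The difference among the 4 time points was larger than the spread between plates (exact permutation test over plates, two-sided p = 0.0286, the smallest possible being 0.00952). A pair of time points with 2 plates each cannot give an exact p below 0.33, so no pair was tested alone. Without plate 1 or plate 2 of 8w pw1 the same exact permutation test gave p = 0.0571. The intervals cover counting error only. The order is not shown to be particular to these cells: the mean share of the 80 cells with the highest sebaceous gland score was 23.9% for 0w and 11.6% for 8w pw1, with 3.02% for 1w pw1 and 6.88% for 1w pw2. For the bulge score these were, in the same sequence, 16.7%, 15.2%, 6.46% and 7.37%.

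**Figure D1:**
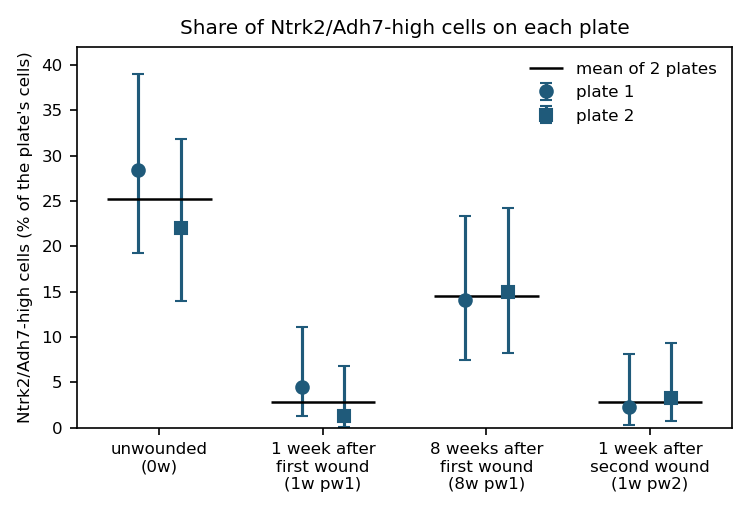
Share of Ntrk2/Adh7-high cells on each plate, as a percentage of the plate's cells (vertical axis), at the 4 time points. Circles and squares are plates 1 and 2, whiskers are exact 95% binomial intervals and lines are means; both 0w plates (28.4% and 21.98%) lie above both 8w pw1 plates (14.1% and 14.9%), and the 4 plates taken 1 week after a wound lie at or below 4.49%.

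The single genes of the score were also counted over all cells of a plate. Inpp4b was detected in 31.8% and 26.4% of all cells at 0w, in 11.2% and 10.1% at 1w pw1, in 34.1% and 32.2% at 8w pw1, and in 11.6% and 12.1% at 1w pw2. In cells thinned to 20000 counts the 0w plates were at 16.3% and 24.7% and the 8w pw1 plates at 21.0% and 26.03%, so these overlap. Ntrk2 was detected in 40.9% and 30.8% of cells at 0w and in 25.9% and 19.5% at 8w pw1, with 21.3% and 21.5% for 1w pw1 and 17.4% and 23.1% for 1w pw2. Ccl27a was detected in 51.1% and 44.0% of cells at 0w but only in 25.9% and 19.5% at 8w pw1, close to the 18.0% and 21.5% of 1w pw1 and the 22.1% and 23.1% of 1w pw2. Adh7 fell between these patterns, with 63.6% and 54.9% at 0w, 27.0% and 31.6% at 1w pw1, 50.6% and 51.7% at 8w pw1, and 31.4% and 36.3% at 1w pw2. These shares helped to choose the cells and are given without a test.

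Which other genes marked these cells? Differences in mean log2(CPM + 1) between Ntrk2/Adh7-high and other cells were taken within each of the 6 plates with at least 3 of the cells and then averaged. They describe the cells and were not tested, since the cells were chosen on the same libraries. Of 6783 genes detected in at least 25% of the cells, 271 were higher on all 6 plates, and of 6860 genes detected in at least 25% of the others, 227 were lower on all 6. Percentages of cells with a gene detected are pooled over all plates unless a time point is named. The 1-week time points gave 10 of the 80 cells but 335 of the others, so pooled percentages also reflect differences between time points.

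Postn (periostin, a matricellular protein of the upper follicle) had the largest difference outside the rule over the 6 plates, 3.86 ± 1.78 (SD, n = 6 plates). This rank rests on the 3 cells of plate 2 of 1w pw2 (7.16), and over the 4 plates of 0w and 8w pw1 Aldh3a1 (3.398) and Sostdc1 (3.37) lay above Postn (3.25). Its mean level in the cells was 1507 and 1136 CPM at 0w, 375 on plate 1 of 1w pw1, 861 and 911 at 8w pw1, and 1422 on plate 2 of 1w pw2. The other cells of the same plates held 1120, 350, 75.8, 773, 437 and 210 CPM. Every plate was thus higher in the cells, by little on plate 1 of 0w and plate 1 of 8w pw1.

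Aldh3a1, an aldehyde dehydrogenase that detoxifies products of lipid peroxidation, differed by 3.67 ± 1.06 (SD, n = 6 plates) and was detected in 91.3% of the cells against 50.5% of the others. Within time points Aldh3a1 was detected in 97.8% against 68.7% at 0w and in 92% against 50.3% at 8w pw1. Its mean level was 588 and 419 CPM at 0w and 455 and 264 CPM at 8w pw1, against 214, 157, 79.9 and 208 CPM in the other cells. Sostdc1, an antagonist of BMP and Wnt signalling, differed by 2.89 ± 0.98 and was detected in 88.8% and 53.4%. Its levels at 0w were 339 and 302 CPM, and at 8w pw1 288 and 491 CPM, against 159, 100.8, 94.8 and 165 CPM. All 4 of these plates held more of both genes in the cells.

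Further genes among the 20 were Cyp4b1, a cytochrome P450 (2.67), Gstm1, a glutathione S-transferase (2.60), Stra6, a receptor for retinol-binding protein (1.92), and Adk, adenosine kinase (1.90). For Gstm1 the mean CPM did not follow the mean log2 level at 0w, with 213 and 56.9 CPM in the cells against 224 and 110 CPM in the others. Also among the 20 highest were Mmp2, a gelatinase (2.24, but 0.87 over the 4 plates of 0w and 8w pw1), Ptn, the growth factor pleiotrophin (2.22), and Lgals9, galectin-9 (2.09). Col17a1, a hemidesmosomal collagen, differed by 2.47 and was detected in 96.3% of the cells and 62.8% of the others. The others were at 87.3% and 80.3% on the plates of 0w and at 79.5% and 79.7% on those of 8w pw1, so the gap was smaller there. Skint4 (2.50), Slc7a6 (1.90), Tmf1 (1.88, but 0.80 over those 4 plates), Rab32 (1.83) and Cachd1 (1.82) completed the list. Mean CPM and mean log2 level also went apart for Ccl27a, Sostdc1, Cyp4b1, Skint4, Mmp2, Ptn, Tmf1 and Rab32 on at least 1 plate each, where the mean CPM was lower in the cells.

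Some of these values are uncertain because near-identical or overlapping genes could share reads. Gm13306, a copy of Ccl27a, was detected in 42.5% of the cells and 8.44% of the others, and Il11ra1, which overlaps Ccl27a, in 57.5% and 25.97%. The relatives Gstm2 and Gstm5 of Gstm1 differed by 1.38 and 1.71. Skint3, a relative of Skint4, differed by -0.13.

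Krt17, a stress and follicle keratin, had the largest difference below 0, -2.76 ± 1.37 (SD, n = 6 plates). Its mean level was 96.7 and 40.6 CPM in the cells at 0w and 84.2 and 138 CPM at 8w pw1, against 1999, 687, 1523 and 1085 CPM in the others. Each of these 4 means was lower in the cells. On plate 2 of 1w pw2 it was 131 against 2166 CPM, but on plate 1 of 1w pw1 the mean CPM was higher in the cells, 2551 against 1713, where 2 of 4 cells carried the gene.

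Spink5, a protease inhibitor of the outer epidermis, differed by -2.28 and was detected in 23.8% of the cells and 56.01% of the others. The others were at 44.4% and 33.8% on the plates of 0w and at 50.7% and 35.1% on those of 8w pw1. Suprabasin (Sbsn, -2.23) and the cornified envelope precursor Sprr1a (-2.17) were likewise lower. Psapl1 (-2.18) was detected in 6 of the 80 cells (7.5%) and in 50.5% of the others. On the plates of 0w the others were at 28.6% and 26.8% for Psapl1, and on those of 8w pw1 at 38.4% and 28.4%. Akr1c18, Muc15, Teddm3, Ide and Mal2 had differences of -2.25, -2.16, -2.13, -2.06 and -1.95. Of the 6 suprabasal epidermis genes, Sbsn alone was lower on all 6 plates, and Krtdap, a secreted protein gene of differentiating keratinocytes, differed the other way (1.70, higher on 5 of 6 plates).

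**Figure D2:**
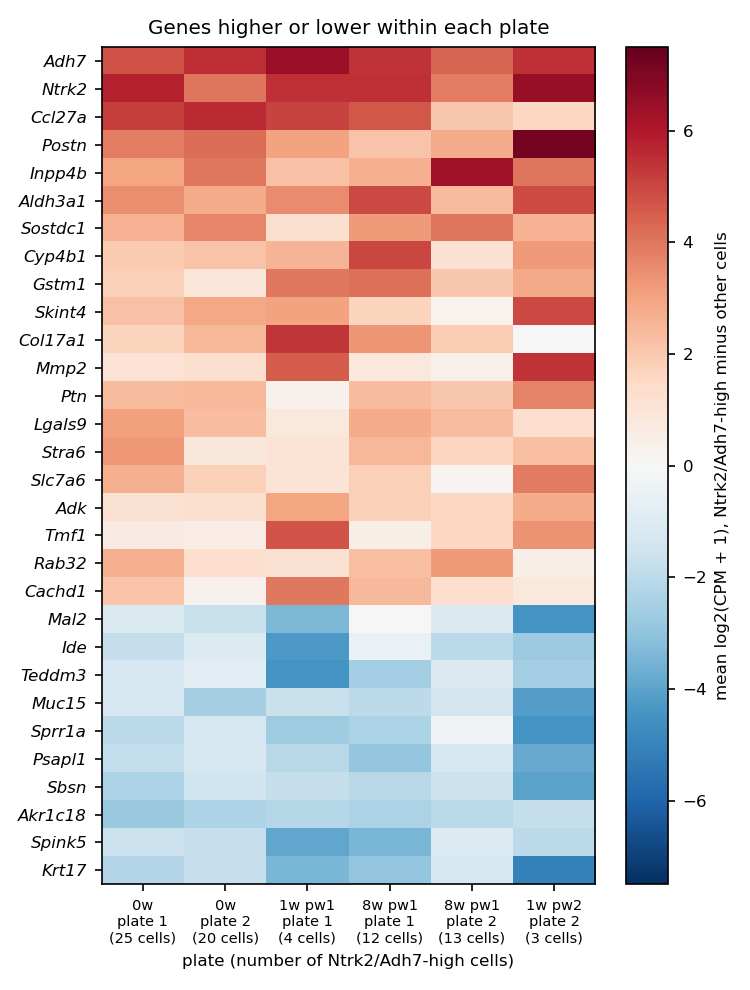
Difference in mean log2(CPM + 1) between Ntrk2/Adh7-high and other cells (colour) for the 20 genes with the largest positive and the 10 with the largest negative mean difference (rows), on the 6 plates with at least 3 such cells (columns). The rule genes Ntrk2, Adh7, Ccl27a and Inpp4b are among the 20, and their differences follow from the choice of cells. Signs agree on all 6 plates because the rule for naming required it, and the value of Postn on the plate with 3 cells (7.16) exceeds those of its other plates.

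Did the label fit the markers? Of the junctional zone and isthmus list, Lrig1, which also drives the Cre of this mouse, was detected in 58.8% of the cells and 43.3% of the others and was higher on 2 of 6 plates (0.25 ± 1.38). Lgr6 was detected in 21.3% and 14.1% (0.11), and Plet1 in 53.8% and 51.3% (-0.08). No member of this list was higher on all plates, so the list did not back the label. The infundibulum list holds only Postn and Ly6a, the gene of Sca-1, which differed by 1.92 and was higher on 5 of 6 plates.

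Bulge genes were split. Krt15, a keratin of basal and bulge cells, differed by 2.22 and was detected in 87.5% of the cells and 41.6% of the others. Within time points it was 91.1% against 69.4% at 0w and 92% against 56.5% at 8w pw1. The transcription factor gene Nfatc1 was higher on all 6 plates (1.18), and Lhx2, a bulge regulator, was lower on all 6 (-0.96). Lgr5, a stem cell receptor of the lower follicle, was detected in 12.5% and 14.3%. Of the 80 cells with the highest score over the 8 bulge genes, 6 were Ntrk2/Adh7-high. The same overlap was 0 for the upper duct list, 3 for the sebaceous gland list and 20 for the basal epidermis list, where equal shares would give 11.5% of 80 cells.

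Of the markers of other cell types, most had few or no counts. The tail-scale keratin genes Krt36 and Krt84 had no count in the 80 cells, and neither had Ptprc and Cd74 of immune cells, with Cd3e in 1 cell. Of the fibroblast list, Dcn, Col1a1, Col1a2 and Pdgfra were detected in 6.25%, 1.25%, 1.25% and 0% of the cells. A gene of the melanocyte list was counted in 16 of the 80 cells (20%) and in 16.1% of the others, with Dct and Pmel in 8.75% of the cells each. Pecam1, an endothelial gene, was counted in 100% of the cells and 98.5% of the others, at a mean of 2213 CPM in the cells, while Kdr, a receptor of endothelial cells, had no count in the cells. A count in 0 of 80 cells allows a share of up to 3.75% of cells with a count, and does not limit the share that expresses the gene below detection.

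Over all 6 plates, 2 of 5 basal epidermis genes and 4 of 12 genes of basement membrane adhesion were higher on every plate, and 1 of 5 upper duct genes was lower on every plate. Among all genes detected in at least 25% of the cells, 271 of 6783 were higher on all 6 plates. Among those detected in at least 25% of the others, 227 of 6860 were lower on all 6. On plate 1 of 1w pw1 the median difference of the basal list was -2.07 and that of the adhesion list -0.60, below 0 in contrast to 0w and 8w pw1. On plate 2 of 1w pw2 these medians were above 0, at 2.22 and 0.33. The counts that follow are for the 4 plates of 0w and 8w pw1, which hold 70 of the 80 cells. These plates were chosen after the values were seen, and leaving out the other 2 raises the counts. All 5 basal epidermis genes were higher on all 4 plates (median difference 1.87), where 8.25% of all genes were. Krt5, the basal keratin, differed by 2.72 ± 1.00 (SD, n = 4 plates), Krt15 by 2.94 ± 0.47 and Krt14 by 1.16 ± 0.17. Of 12 genes of basement membrane adhesion, 11 were higher on all 4 plates (median 1.56). They included the laminin chain gene Lamb3 (2.03), the integrin genes Itgb4 (1.87), Itga2 (1.74), Itga3 (1.49) and Itga6 (1.204), and the linker gene Dst (1.63). The basal and adhesion lists share genes, Itgb4 among them, so their counts are not separate results.

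Of the 5 upper duct genes, 4 were lower on all 4 plates, where 9.27% of all genes were. Among them were Krt79, a keratin of the duct (-2.90 ± 1.21, SD, n = 4 plates), Cst6, a cystatin (-2.90 ± 0.43), and Defb6, a defensin (-1.50). The retinoid carriers Fabp5 (-2.53) and Crabp2 (-1.36) were lower as well, although Stra6 was higher. Of 17 genes of retinoid metabolism outside the rule, 1 was higher and 3 were lower on all 4 plates.

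Other lists moved less. Of 23 cell cycle genes, 8 were higher on all 4 plates and 20 had a mean above 0, as 51.1% of all genes had (median 0.47, against 1.96 on plate 2 of 1w pw2 and -0.45 on plate 1 of 1w pw1), led by the cyclin genes Ccnd1 (2.31) and Ccnd2 (1.94), while Mki67, a marker of dividing cells, differed by 0.07. Of 7 neurotrophin genes other than Ntrk2, the sorting receptor gene Sort1 was lower (-1.53) and 1 was higher on all 4. Ackr4, a scavenger receptor for chemokines, differed by 2.61 and was detected in 56.3% of the 80 cells and 15.9% of the others. In the Wnt list, 2 of 18 genes were higher and 4 lower on all 4 plates, the inhibitor Sfrp1 among the lower ones (-1.70). The hedgehog transcription factor Gli3 differed by 0.77, and none of 14 immediate early genes had 1 sign on all 4 plates.

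**Figure D3:**
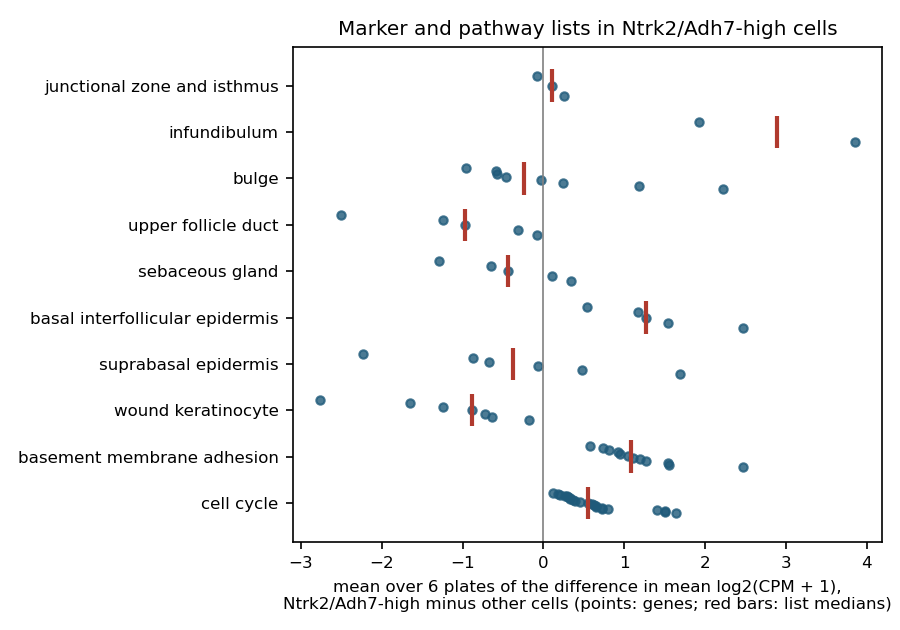
Mean difference in log2(CPM + 1) between Ntrk2/Adh7-high and other cells over 6 plates (horizontal axis) for each gene (points) of 10 lists (rows), with list medians as red bars. All 12 basement membrane adhesion genes and all 23 cell cycle genes lie above 0, while the 5 upper duct genes lie below it and the junctional zone genes lie near 0. The cell cycle list had a median of 1.96 on the plate with 3 cells, and 20 of its 23 genes lay above 0 over the 4 plates of 0w and 8w pw1. Over the 6 plates the median of all genes was -0.01, and 0.12 for those detected in at least 25% of the cells.

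At each time point, Ntrk2/Adh7-high cells had more cells of their kind among their neighbours than the other cells had, with the rule genes left out. Whether genes that could share their reads, such as Gm13306, added to this was not tested. Whether cells of different time points resembled each other was not tested. With the 5 genes left out, the 15 nearest cells in the space of 20 principal components were Ntrk2/Adh7-high in 43.3% of cases for the cells themselves and in 8.22% for the other cells. Within time points it was 50.4% against 14.9% at 0w and 44.0% against 12.4% at 8w pw1. At 1w pw1 these shares were 8.0% against 2.86% and at 1w pw2 12% against 4.50%. Ntrk2/Adh7-high cells made up 11.5% of all cells. Each of these 1-week time points held 5 such cells, so a low share need not mean less resemblance. Of the 5, 2 at 1w pw1 and 1 at 1w pw2 had none of their kind among their neighbours. Neighbours came from the same plate in 38.3% of cases for the cells and in 33.2% for the others.

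The 10 cells found 1 week after a wound differed in keratins from the 70 of unwounded and 8-week skin, in part as the other cells of those plates did. Krt5 was detected in 3 of the 10 and in 64 of the 70 (91.4%), and in 44.2% and 69.4% of the other cells. Of the 3, 2 had entered the ranking with Smarca1 and held no count of Ntrk2 or Adh7, the only cell of plate 2 of 1w pw1 among them, and of the 8 cells with Ntrk2 and Adh7, 1 had Krt5. Krt10, a keratin of suprabasal cells, was detected in 8 of the 10 and in 35 of the 70, and in 89.0% and 61.6% of the other cells. Its median level was 2850 CPM at 1w pw1 and 2627 CPM at 1w pw2 in the Ntrk2/Adh7-high cells, and 4642 and 2986 CPM in the other cells. Krt79 was detected in 9 of the 10 and in 17 of the 70 (24.3%), and in 58.5% and 49.8% of the other cells. These comparisons of cells across plates carry no test.

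At 1w pw1 the cell with the most Krt79 held 19049 CPM of it, with 2850 CPM of Krt10 and no Krt5, but only 6667 counts in all. Another held 13396 CPM of Krt10 together with 534 CPM of Adh7 and 1213 CPM of Postn. At 1w pw2 a cell with 20805 CPM of Krt79 had 45.6 CPM of Ntrk2, and a cell with 521 CPM of Adh7 had 11436 CPM of Krt10. Each of these 4 cells lacked Krt5.

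How did the keratins of wounded epidermis behave in these cells? Krt6a (chr15:101689910-101694307, minus strand) and Krt16 (chr11:100246091-100248902, minus strand) encode keratins that keratinocytes switch on after injury. Their mean levels were higher in the other cells 1 week after a wound than at 0w, through cells with up to 49466 CPM of Krt6a and 55770 CPM of Krt16 at 1w pw1. No Ntrk2/Adh7-high cell of those plates had such levels, but detection did not show the same contrast for both genes. Mean Krt6a levels in the other cells were 143 and 46.4 CPM at 0w, 3502 and 2909 CPM at 1w pw1, 459 and 692 CPM at 8w pw1, and 1025 and 1351 CPM at 1w pw2. In the Ntrk2/Adh7-high cells they were 33.0 and 44.8 CPM at 0w, 1.68 and 0 CPM at 1w pw1, 106 and 186 CPM at 8w pw1, and 30.9 and 0 CPM at 1w pw2.

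Krt6a was counted in 1 of the 5 cells at 1w pw1 and in 110 of the 163 others (67.5%). At 1w pw2 it was counted in 2 of 5 and in 97 of 172 (56.4%), while at 0w it was counted in 19 of 45 (42.2%) and in 32 of 134 (23.9%). Its median in the other cells was 100.7 CPM at 1w pw1 and 49.6 CPM at 1w pw2, and the highest Ntrk2/Adh7-high cells held 6.72 and 46.6 CPM. Krt16 was counted in 4 of 45 Ntrk2/Adh7-high cells at 0w (8.89%), 1 of 5 at 1w pw1 (20%) and 3 of 5 at 1w pw2 (60%), against 8.96%, 53.4% and 45.3% of the others. The highest of these cells held 11.1 CPM of Krt16 at 1w pw1 and 15.7 CPM at 1w pw2, above the medians of the other cells, 3.38 and 0 CPM, and below their means of 1956 and 2000.3 CPM at 1w pw1 and 290 and 1089 CPM at 1w pw2.

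Krt6a and Krt16 belong to the wound keratinocyte list of 7 genes, which also holds Krt17. The mean level of Krt17 was higher in the Ntrk2/Adh7-high cells on plate 1 of 1w pw1, as given above, and on plate 1 of 1w pw2 (5914 against 3921 CPM, in 2 of 2 cells). Between 1w pw1 and 0w within these cells, 3 of 6 genes of the list tested lay above 0, with a median of 0.34 against -2.04 for all genes, and none was called.

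In the summed Ntrk2/Adh7-high cells Krt6a went from 29.3 and 102.2 CPM at 0w to 2.51 CPM at 1w pw1, where 1 cell had a count. In the summed other cells it went from 61.5 and 39.98 CPM to 5878 CPM. The change from 0w to 1w pw1 was relatively lower in the Ntrk2/Adh7-high cells than in the other cells of the same plates. This difference was log2 -11.33 (SE 1.25) for Krt6a and log2 -10.57 (SE 1.30) for Krt16. The adjusted p of the difference was 0.000381 for Krt6a and 0.000858 for Krt16 (edgeR quasi-likelihood test of the interaction on counts summed per plate, Benjamini-Hochberg over 14003 genes). Both passed in all 11 alternatives tried, with adjusted p up to 0.0129 and 0.0351. From 0w to 1w pw2 the adjusted p was 0.000229 for Krt6a and 0.000552 for Krt16, and each passed in 8 of 10 alternatives, with adjusted p up to 0.401 and 0.518. These fits rest on 4 cells of plate 1 at 1w pw1 and 3 cells of plate 2 at 1w pw2, and a lone plate was assumed to vary like the others. The sums they compare are carried in the other cells by the few cells with very high levels. With counts of 1 cell or none behind them, the fitted sizes depend on the method and are no measure of the fold.

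**Figure D4:**
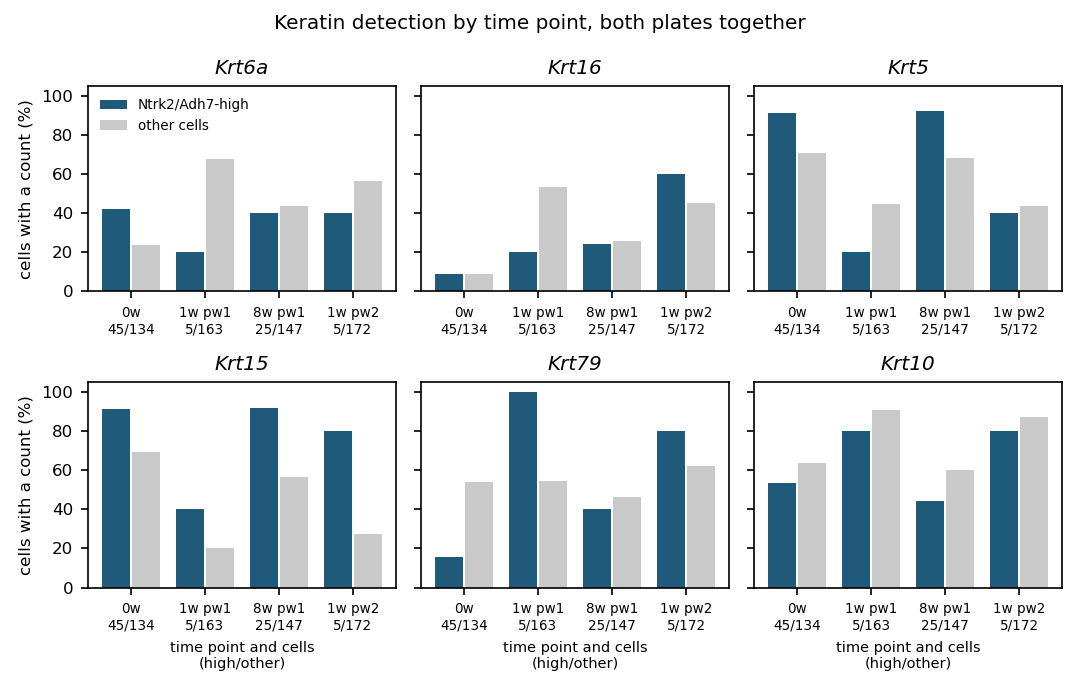
Percentage of cells with at least 1 count (vertical axis) of 6 keratin genes at the 4 time points, for Ntrk2/Adh7-high cells (blue) and other cells (grey), both plates together, with the number of cells under each pair. Krt6a was detected in 20% of the 5 blue and 67.5% of the 163 grey cells at 1w pw1, and Krt79 in 15.6% of the 45 blue cells at 0w and 100% of the 5 at 1w pw1.

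Over all genes, that interaction at 1w pw1 called 61 of 14003 genes (0.436%), 4 relatively higher and 57 relatively lower in the Ntrk2/Adh7-high cells, at an adjusted p below 0.05 and a fold above 2. For 28 of the 61, the cells of 1 time point held no count. The median of all genes lay at -2.36, and DESeq2 called 47 higher and 143 lower with a median of -0.40, and with all 8 plates in the fit 3 genes were called. Besides the keratins, the calls included Krt5, Krt14, Krt15 and the integrin gene Itgb1 as relatively lower. Scd1, a desaturase of sebocytes, was relatively higher: it was counted in 4 of 4 cells on that plate, and a single cell held 88.1% of these counts.

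At 1w pw2 the interaction called 67 genes (0.478%), 10 relatively higher and 57 relatively lower, with a median of -1.35 over all genes. DESeq2 called 260 higher and 242 lower (median -0.26), so the balance of directions depended on the method. For 28 of these the cells of 1 time point held no count, 5 were mitochondrial, and none was called with all 8 plates. The highest fitted values were those of Zfp667 and Cxcr6, each from a single cell.

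Within the Ntrk2/Adh7-high cells, edgeR called few genes between time points, with 2 residual degrees of freedom, while DESeq2 called 56 to 950. From 0w to 8w pw1, 1 of 11090 genes was called (0.00902%), and 706 had an unadjusted p below 0.05. This was Cstdc5, a member of the stefin A cystatin cluster. It had no count in the 45 cells of 0w and was counted in 4 of the 25 cells of 8w pw1, at 823 and 161 CPM on the 2 plates (at least 1552-fold higher against a floor of 3 counts over the 0w cells, edgeR adjusted p = 0.0206). A single cell held 82.8% of its counts at 8w pw1. It passed in 10 of 15 alternatives, with adjusted p from 2.91e-14 to 0.597, and not in the one where each cell was given the same weight.

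Other genes with low p in this comparison did not pass. Sox6, a transcription factor gene, had no count at 0w and was at 42.2 and 141 CPM at 8w pw1 (edgeR adjusted p = 0.449). Krt10 was at 1308 and 1998 CPM in the summed cells of 0w and at 173 and 20.02 CPM at 8w pw1 (log2 -4.10, SE 0.82, edgeR adjusted p = 0.474), with 65.4% of the 8w pw1 counts in 1 cell. Its sign turned with the choice of cells, to 0.23 with 100 cells and 0.58 with scores on thinned cells. Both genes were named by a rule that required the plates of the time points not to overlap, so that is no result.

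For the genes that marked the cells, no difference between 0w and 8w pw1 passed the test. The fitted log2 differences were -0.93 (SE 0.56) for Postn, -0.56 (SE 0.74) for Aldh3a1, 0.33 (SE 0.72) for Sostdc1, 0.93 (SE 0.63) for Col17a1 and -0.92 (SE 0.66) for Krt15. Krt5 was at 620 and 517 CPM at 0w and at 1200 and 2237 CPM at 8w pw1 (1.60, SE 0.63), and Krt6a differed by 1.82 (SE 0.93). The edgeR adjusted p lay between 0.731 and 0.977 for these 7 genes, and SEs of this size leave room for changes of several-fold. The 5 basal genes had a median of 1.49 and the 6 wound keratinocyte genes tested a median of 2.91, all above 0, against 0.01 for all genes, with no gene of either list called. Against the other cells of the same plates, the wound list had a median of -0.47, with 3 of 7 genes above 0.

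Against the other cells of the same plates, 7 of 14003 genes (0.05%) changed differently from 0w to 8w pw1, 2 higher and 5 lower. Krt1 and Krt10, the keratin pair of suprabasal epidermis, were the lower ones with the lowest p. Krt10 was at 1408 and 2067 CPM at 0w and 177 and 20.5 CPM at 8w pw1 in the summed Ntrk2/Adh7-high cells, while the other cells were at 616 and 1670 CPM and at 2683 and 3600 CPM. The difference was -6.40 (SE 0.77, edgeR adjusted p = 0.000524) for Krt10 and -5.88 (SE 0.67, edgeR adjusted p = 0.000314) for Krt1. A few cells carried these values. Krt1 was counted in 9 of 45 cells at 0w, with 50.8% of the counts in 1 cell, and in 5 of 25 at 8w pw1, with 75% in 1 cell, so its detection was alike. Krt10 was detected in 53.3% and 44.0% of the cells, and at 0w its median was 9.52 CPM and its highest value 16336 CPM. Each passed in 10 of 12 alternatives. With 100 cells the Krt10 value was -2.49 and did not pass, and with all 8 plates in the fit no gene was called.

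The other 3 relatively lower genes were Fabp5, an epidermal fatty acid binding protein gene (-3.81), Stfa3, a stefin (-5.86), and Cyp2b19, a keratinocyte cytochrome P450 (-10.83). Fabp5 and Cyp2b19 each passed in only 5 of 12 alternatives and Stfa3 in 7 of 12. At 0w the cell with the most counts held 66.2% of those of Fabp5, 61.6% for Cyp2b19 and 40.6% for Stfa3. Stfa3 was at 261 and 392 CPM in the cells at 0w and at 18.9 and 7.28 CPM at 8w pw1. Cstdc5 and Zfp874a, a zinc finger gene, were the 2 relatively higher ones. Cstdc5 was detected in 3.73% of the other cells at 0w and 21.8% at 8w pw1, so its detection was also higher there, and the fitted value of 10.86 comes from a group with no count. Of the suprabasal list, 2 of 6 genes tested were called lower (median -2.47, against -0.16 for all genes), and of the retinoid list 1 of 17.

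From 0w to 1w pw1 no gene was called within the cells (0.0%, edgeR), although 1549 of 11090 had an unadjusted p below 0.05 and DESeq2 called 251. Krt5 had no count in the 4 cells of plate 1 of 1w pw1 and was counted in 41 of 45 at 0w, but the single cell of plate 2, which was not in this fit, held 338 CPM. S100a6, a calcium-binding protein gene, and Moxd1 were likewise at 0 in the 4 cells and counted in 39 and 41 of the 45. The smallest adjusted p was 0.122, for Krt5, and the median of all genes was -2.04.

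From 0w to 1w pw2, 3 genes were called (0.0271%): Zfp667 and Cxcr6, each counted in 1 of 3 cells and in 0 of 45, and the mitochondrial gene mt-Co3, lower. mt-Co3 was at 80390 and 120200 CPM at 0w and 13220 CPM at 1w pw2, where a single cell held 72.2% of the counts. The median mitochondrial share was also lower in the other cells, 14.3% and 13.4% at 1w pw2 against 19.9% and 29.9% at 0w, and its part in this call was not tested. From 8w pw1 to 1w pw2, 24 genes were called (0.216%), 16 higher and 8 lower, with Krt10 among the higher ones. The excess of higher calls turned to 416 higher and 534 lower with DESeq2, and to 238 and 267 without a filter on low counts. Called genes with the largest values included Galc, a lysosomal galactosidase gene, as higher, and Thbs1, a matricellular gene, and Gas1, a hedgehog co-receptor gene, as lower. Also named there were Pcdhb5, Sowahc and Sh3gl2 as higher and Rbbp8, Arhgap5 and Prxl2a as lower. A single cell held 99.3% of the 1w pw2 counts of Galc, 100% of those of Pcdhb5 and Sowahc and 89.1% of those of Sh3gl2, and the lower genes had 0 or 1 count in the 3 cells. With all 8 plates in the fit, none was called in either comparison.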

How the data were processed

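The deposited values are estimated counts per gene and cell, which the authors made with Salmon 0.13.1 (builds mm10 and GRCm38 in the submitters' processing notes) after removing cells with under 1000 genes or over 50% mitochondrial reads and genes seen in fewer than 5 cells. Of the values, 96.6% were whole. No molecular identifiers were available, so counts include PCR copies. CPM, scores and thinning to 20000 counts were computed from these counts. The counts of the Ntrk2/Adh7-high cells were summed per plate, rounded and tested with edgeR 4.0.16 (R 4.3.3; TMM, filterByExpr, quasi-likelihood, Benjamini-Hochberg, adjusted p below 0.05 and fold above 2) on the 6 plates with at least 3 such cells, with time point as the term, 2 residual degrees of freedom and a biological coefficient of variation of 0.860. The interaction with the other cells had plate as a block and 0.681. Per the study's methods, 2 independent experiments with 4 biological replicates each were joined, and the labels do not tie plates to them. Shares were tested over the 2520 allocations of 8 plates. The study tested single cells with Seurat, which was not done here. Scripts were tested on simulated data.

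The cells, gene lists and tests were chosen with earlier results of these data known. Genes were named by rule: the 5 score genes; the 20 highest and 10 lowest mean within-plate differences with 1 sign on all 6 plates, detected in at least 25% of cells, without predicted, RIKEN, pseudogene and mitochondrial genes; in each contrast the 5 highest and 5 lowest called genes whose plates did not overlap (where fewer than 3 were called, the 3 lowest p per direction); and genes of the lists. Not every gene that the rule names is reported here. Cell types outside those lists were not named. Alternatives were DESeq2 1.42.0, no filter, a replicate block, 60 or 100 cells, thinned scores, equal weight per cell, other score genes, each plate left out and, chosen after seeing the data, all 8 plates. No doublet caller was run: cells were sorted singly into wells. Coordinates are from GENCODE M21 (GRCm38) and promoters from RefSeq.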

Additional observations from a re-analysis of the deposited data

Results flagged for a closer look

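Genes whose change from 0w differed between Ntrk2/Adh7-high and other cells of the same plates, by the test of the difference itself (edgeR interaction), are given here as fitted log2 values. At 8w pw1, with 2 plates in each group, these were Cstdc5 (10.86), Zfp874a (9.99), Cyp2b19 (-10.83), Krt10 (-6.40), Krt1 (-5.88), Stfa3 (-5.86) and Fabp5 (-3.81).

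At 1w pw1, where 4 cells of 1 plate carry the value, the relatively higher genes were Cxcr6 (13.50), Ankrd29 (8.89), Zfp81 (7.37) and Scd1 (5.21). Of the 57 relatively lower ones, those named here were S100a6 (-16.76), Krt5 (-15.60), Amd1 (-14.88), Rap1b (-14.68), Slc2a1 (-14.64), Krt6a (-11.33) and Krt16 (-10.57).

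At 1w pw2, where 3 cells of 1 plate carry the value, those named here of the 10 relatively higher genes were Zfp667 (16.27), Cxcr6 (14.29), Knstrn (11.51) and Gm2004 (7.85). Of the 57 relatively lower ones, those named here were Tslp (-18.89), Krt6a (-16.54), Gm10718 (-15.70), Naa15 (-15.21), Zfp97 (-14.75) and Krt16 (-10.61). Values beyond about 10 in size stem from groups with no count or a few counts and are not folds.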

How the results depend on the processing

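The order of the shares, 0w above 8w pw1 above both 1-week time points, held in all 19 alternatives, and the exact permutation p was below 0.05 in 17. Leaving out single plates gave p from 0.00952 to 0.0571, the highest without either 8w pw1 plate.

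Counts of called genes depended strongly on the settings, and the cause was not tested. Within the cells, for 1w pw1, for 8w pw1 and for 1w pw2, each against 0w, and for 1w pw2 against 8w pw1, the counts in the report 0, 1, 3 and 24 became 251, 56, 729 and 950 with DESeq2 and 195, 91, 408 and 505 without a filter on low counts. With all 8 plates each was 0. With equal weight per cell they were 9, 0, 0 and 1. Scores on thinned cells gave 1, 1, 0 and 1, 60 cells gave 0 and 0 for the first 2 (1w pw2 then had no plate with 3 cells), and 100 cells gave 0, 1, 0 and 0. For the difference from other cells (1w pw1, then 8w pw1, then 1w pw2) the counts 61, 7 and 67 became 190, 87 and 502 with DESeq2, 270, 46 and 326 without a filter, 388, 17 and 192 with equal weight, 13, 2 and 5 with 100 cells, 3, 0 and 0 with all 8 plates, and 102 and 6 with 60 cells at the first 2.

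With the replicate number as a block, the 4 counts within the cells were 0, 0, 6 and 10. Same-numbered plates of 0w and 8w pw1 deviated together with a correlation of only 0.063 over 11090 genes, so the numbers were not taken as pairs.

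Leaving out single plates gave 0 to 46, 0 to 43, 0 to 123 and 0 to 294 within the cells, the highest without plate 1 of 0w in each, and 33 to 94, 3 to 34 and 40 to 135 for the differences, the highest without plate 2 of 8w pw1 in the first and without plate 1 of 0w in the others. Without plate 2 of 0w the counts within the cells were 26, 6, 39 and 268, and without either 8w pw1 plate the last 2 were 0. Without plate 1 of 1w pw1 the second difference had 4 calls, and without either 8w pw1 plate it had 3. Without plate 2 of 1w pw2 the first had 33. The third had 40 without plate 1 and 103 without plate 2 of 8w pw1. Contrasts that lost their only plate of a time point gave no value.

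Of 757 single-gene values under alternatives, 536 kept their direction and their side of the threshold, 176 fell below the threshold, 39 newly passed it and 6 changed sign. Krt10 at 8w pw1 within the cells became 0.23 with 100 cells and 0.58 with thinned scores, and Sostdc1 ranged from -0.26 (without plate 2 of 8w pw1) to 0.74 when single plates were left out. For the differences, Ankrd29 became -5.98 with 60 cells, Gm2004 became -0.81 with 100 cells, and Krt6a at 8w pw1 ranged from -2.10 (without plate 1 of 0w) to 0.32 (without plate 2 of 0w). Limits are the 10 cells of the 1-week time points and cells as shallow as 6667 counts, in which an undetected gene is not shown to be absent.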
